A study of Mus musculus with 12 samples.

Results

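*Bbs7*, *Bbs1*, *Bbs2*, *Bbs4*, *Bbs5*, *Bbs9* and *Ttc8* encode subunits of the BBSome, *Arl6* encodes the GTPase that brings this complex to membranes, and *Bbs10* and *Bbs12* encode chaperonin-like proteins needed to assemble it. These 10 genes were chosen by name from the 41255 genes of the mRNA table, because *Bbs7* mRNA went from almost none in the *WT* clones to one of the higher levels in the *R98S* clones. All 10 are in the mRNA table, and 9 of them, without *Bbs7*, are among the 10080 genes of the ribosome footprint table. The measurements of *Bbs7* mRNA are therefore a description without a test, whereas the other 9 genes were picked for their function and were tested.

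The cells were Ba/F3 cells, a mouse lymphoid line that grows in interleukin-3. They carried a retroviral human *RPL10* cDNA, either *WT* or with the R98S substitution, while mouse *Rpl10* was knocked down with an shRNA in both genotypes. Each of the 3 *R98S* clones (11, 13 and 35) and 3 *WT* clones (28, 29 and 36) was grown from a single cell, and 1 ribosome footprinting library and 1 matching mRNA library were made per clone after 5 min of cycloheximide at 100 μg/ml. A genotype therefore stands for 3 clones of one line. The p-values set the difference between genotypes against the spread within a genotype. With 1 library per clone and assay, differences between clones and between libraries cannot be told apart in that spread.

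The BBSome is a coat-like cargo adaptor that carries membrane proteins, such as signaling receptors, into and out of the primary cilium along the intraflagellar transport (IFT) machinery. Its core is built on a chaperonin complex of Mkks, Bbs10, Bbs12 and CCT subunits, which releases Bbs7 together with Bbs2 and Bbs9 before the remaining subunits join. Inherited loss of BBSome subunits, of Arl6 or of the chaperonin-like proteins can cause Bardet-Biedl syndrome, a disease of cilia with retinal degeneration and obesity. Lymphoid cells are usually described as lacking a primary cilium, and the genes are best studied in other tissues.

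The mRNA libraries held 20576796 to 22178094 reads in the *R98S* clones and 6617457 to 23136595 in the *WT* clones, and the footprint libraries 3477723 to 10883086 and 4611390 to 7162305. The lowest mRNA depth was that of *WT* clone 28, where a single read equals 2.69 normalized counts, and elsewhere it equals 0.784 to 0.860. Normalized counts are reads divided by the size factor of the library. Of 9 pro-B cell markers, 7 were at 10 normalized counts or less in every mRNA library, among them *Pax5* and *Rag1*, while *Cd79a* and *Cd79b* exceeded that level. Of 5 markers of interleukin-3-dependent haematopoietic cells, all but *Kit* were above that level in at least 1 library. The summed mRNA of the pro-B list ran from 1350.5 to 1671 normalized counts in *R98S* and from 893 to 1155 in *WT*, and that of the interleukin-3-dependent list from 99455 to 120902 and from 46935 to 92744. The sum of 5 mast cell and basophil markers, with *Fcer1a* and *Prss34* at 10 or less throughout, ran from 287 to 1096 and from 98.7 to 214, and that of 3 myeloid markers from 0 to 1.64 and from 5.37 to 5.77. None of these 4 sums overlapped between genotypes, though the myeloid sums were near 0. The sum of fibroblast or epithelial markers, 3.44 to 12.7 in *R98S* and 0 to 0.825 in *WT*, did not overlap either. Those of T cell markers (2.46 to 12.7 and 3.92 to 18.8) and erythroid markers (206 to 393 and 190 to 336) overlapped. The part of these markers in the results was not tested. The row of the mouse gene *Rpl10* held 2905, 1449 and 2355 normalized counts of mRNA in *R98S* clones 11, 13 and 35 and 4501, 2345 and 2230.2 in *WT* clones 28, 29 and 36, which overlap, and the share of the human cDNA in these reads was not tested.

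*Bbs7* lies on chromosome 3 (mm10, chr3:36573142-36613477, minus strand) and is protein-coding. Its mRNA reached 7918, 5200.4 and 7698 normalized counts in *R98S* clones 11, 13 and 35, from 9974, 6350 and 8955 reads. In *WT* clones 28, 29 and 36 the values were 2.69, 0 and 1.57, from 1, 0 and 2 reads. The means were 6939 ± 1510 in *R98S* and 1.42 ± 1.35 in *WT* (SD, n = 3), so that all *R98S* clones stood above all *WT* clones by more than 3 orders of magnitude. Taken over the pooled reads and scaled for depth, 25279 reads stood against 3, a ratio of 6616 with a 95% exact binomial interval of 2263 to 32082. This interval covers counting error only, and a count of 0 in *WT* clone 29 allows up to 3 reads, or 2.47 normalized counts. In such bulk libraries, fewer cells with the mRNA and less mRNA per cell cannot be told apart.

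Per kb of exon, *Bbs7* mRNA was at 1287 ± 280 normalized counts in *R98S* and 0.263 ± 0.250 in *WT* (SD, n = 3). Among the genes tested for mRNA whose length is known, 94.6% had a lower level per kb in *R98S* and 0.397% in *WT*. In *R98S* the gene thus stood in the upper part of the tested genes. Its place in *WT* rests on 0 to 2 reads a clone, so that its mRNA was barely detected there. *Bbs7* is among the tested genes only through its *R98S* counts, and its low place in *WT* reflects how it came to be tested. The level per kb depends on the gene model, since with the length of the longest coding transcript in place of all exons it was 2582 in *R98S* and 0.528 in *WT*.

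**Figure D1:**
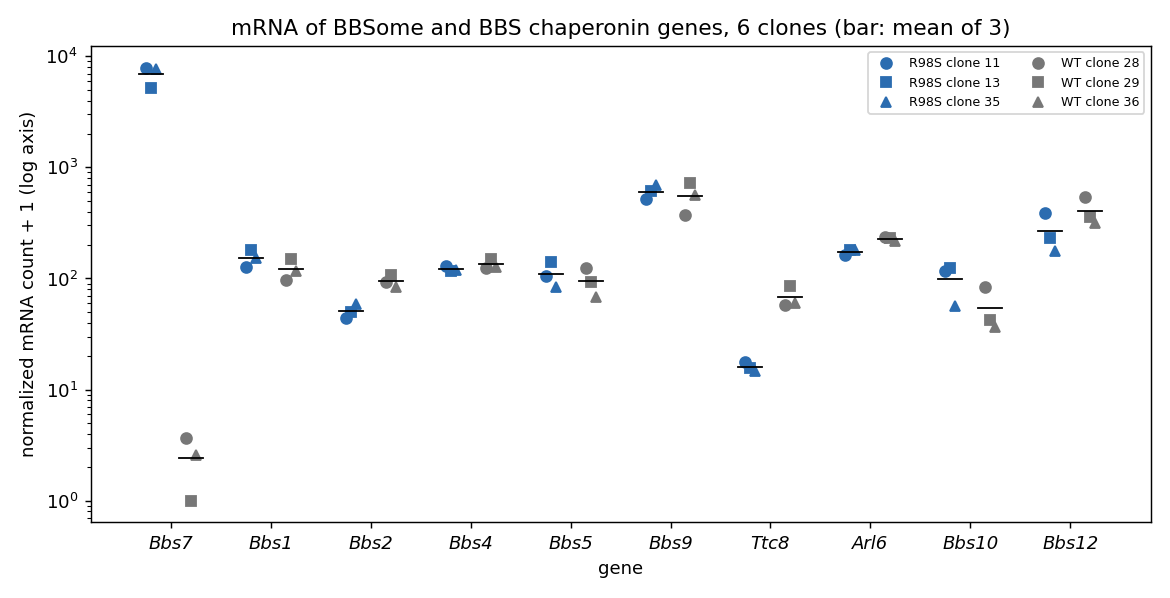
Normalized mRNA count + 1 on a log axis for the 10 genes, with 1 point per clone (blue, R98S; grey, WT) and a bar at the mean of 3 clones. Bbs7 separates the genotypes by more than 3 orders of magnitude, Ttc8, Bbs2 and Arl6 are lower in each R98S clone than in any WT clone, and the genotypes overlap for the other 6 genes.

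The promoter of *Bbs7* is shown because its mRNA set this gene apart. RefSeq promoter sequences (GRCm38.p6, 250 bases before to 50 after the annotated start) were found for all 10 genes, with 2 windows for *Arl6*. Regulatory factor X (RFX) proteins bind a palindromic sequence, the X-box, that is common upstream of genes used in cilia. The X-box was searched on both strands as GTTGCC and GGNAAC with 2 bases of any kind between them, where N is any base. A looser form, GTNNCC and GGNAAC with the same spacer, includes the first. The E-box CACGTG and the GC box GGGCGG were searched as well, and neither overlaps the X-box in *Bbs7*. The motifs were chosen after the promoter of *Bbs7* had been read. In the window shown, 5′ to 3′ on the minus strand (chr3:36613340-36613639), the capitals mark the X-box, whose first base lies 121 bases before the RefSeq start.
Bbs7: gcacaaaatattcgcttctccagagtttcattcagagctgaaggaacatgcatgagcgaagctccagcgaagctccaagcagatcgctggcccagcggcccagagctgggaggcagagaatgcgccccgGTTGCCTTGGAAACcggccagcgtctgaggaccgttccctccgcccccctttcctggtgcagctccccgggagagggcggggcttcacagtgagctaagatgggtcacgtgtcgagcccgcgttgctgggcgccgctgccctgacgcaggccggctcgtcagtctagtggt
The strict X-box was present in 0.298% of all 32851 promoter windows and in 1 of the 10 genes, *Bbs7*. The looser form was present in 1.29% of all windows and in 3 of the 10 genes, *Bbs7*, *Bbs1* and *Bbs4*. The 30 bases around it are set side by side here, each read along the gene's own strand, with the X-box in capitals; in *Bbs1* the match is on the opposite strand and begins 1 base after the first transcribed base, and in *Bbs4* it begins 23 bases after it.
Bbs7: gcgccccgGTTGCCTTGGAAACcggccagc
Bbs1: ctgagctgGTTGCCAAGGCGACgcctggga
Bbs4: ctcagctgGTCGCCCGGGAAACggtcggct
The *Bbs1* stretch is chr19:4906605-4906634 and the *Bbs4* stretch chr9:59353464-59353493, both on the minus strand. Any part of the X-box in the mRNA values of these 3 genes was not tested. The E-box was present in 7.15% of windows and, among the 10 genes, in *Bbs7* alone, 16 bases before the RefSeq start. This E-box (chr3:36613400-36613405) lies within the *Bbs7* gene as placed above (chr3:36573142-36613477), so the 2 annotations put the start at different bases. The GC box was present in 35.7% of windows and in 6 of the 10 genes. A match describes letters in the window and was not tested as a binding site.

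The footprints of *Bbs7* were not analysed here, and the footprint table lists only genes with at least 1 read in each of its 6 libraries. Of the 7 genes, *Bbs7* among them, whose mRNA was at least 100 normalized counts in each *R98S* clone and at most 3 in each *WT* clone, 0 are listed there. Whether ribosomes occupied *Bbs7* mRNA in the *R98S* clones can thus not be read from these values.

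Next, the genes that rose and fell like *Bbs7* across clones were sought, as a description. The 5 genes of highest Pearson correlation with *Bbs7* in log2(mRNA + 1) over the 6 mRNA libraries were *Lgals3* (galectin-3, r = 0.997), *BC064078*, *Lgals7* (a second galectin), *Fitm1* (a lipid droplet protein) and *Lpgat1* (an acyltransferase of phospholipids, r = 0.995). *Lgals3* mRNA was 1001, 611 and 941 normalized counts in the *R98S* clones (11, 13 and 35) and 48.3, 34.6 and 42.3 in the *WT* clones (28, 29 and 36), and its footprints were 719, 472 and 596 against 27.7, 27.1 and 27.7. As with *Bbs7*, clone 13 was the lowest of the *R98S* clones for *Lgals3*. *BC064078* mRNA was instead lowest in clone 11, at 117 normalized counts, against 119 and 200 in clones 13 and 35. These genes were picked by their likeness to *Bbs7*, so a shared order of clones partly follows from the choice. *Lpgat1* mRNA was 395, 368 and 407 against 0 in each *WT* clone. The 5 genes lie on chromosomes 14, 6, 7, 14 and 1, none on the chromosome of *Bbs7*. With 6 libraries in 2 separate clusters such values are common, and 154 of 11343 genes had an r above 0.95.

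The other 9 genes, subunits and not, did not follow *Bbs7* in mRNA. Of the 9 remaining genes, 1 was lower and 0 were higher in *R98S* in the mRNA test (limma, adjusted p under 0.1), beside 6.94% of all 11344 genes tested (3.03% higher and 3.91% lower). Their median log2 change was -0.13, and that of all genes tested was 0.01. The *R98S* clones lay entirely below the *WT* clones for 3 of the 9 (*Ttc8*, *Bbs2* and *Arl6*) and entirely above for 0, where 11.6% of all genes lay below and 11.9% above (23.5% together).

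*Ttc8*, also known as *Bbs8*, encodes a tetratricopeptide repeat subunit of the BBSome and was the only one of the 9 past the threshold. Its mRNA was 16.7, 14.7 and 13.8 normalized counts in *R98S* clones 11, 13 and 35, from 21, 18 and 16 reads. In *WT* clones 28, 29 and 36 it was 56.4, 84.1 and 59.6, from 21, 102 and 76 reads. All *R98S* clones were below all *WT* clones, and the *R98S* clones were close to each other. *Ttc8* fell by 2.06 on the log2 scale, or 4.16-fold (SE 0.36, limma adjusted p = 0.0143). Leaving out each clone in turn left the adjusted p between 0.0168 and 0.0630, so that no single clone carried the call.

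The footprints of *Ttc8* were 3.72, 10.1 and 3.36 normalized counts in the *R98S* clones, from 7, 12 and 2 reads, and 17.2, 19.8 and 15.8 in the *WT* clones, from 18, 19 and 12 reads. Again the genotypes did not overlap. The log2 difference was -1.60 (SE 0.52), with a limma adjusted p of 0.117. Without the filter on low values the adjusted p was 0.0795, past the threshold. The gene is on chromosome 12 (mm10, chr12:98920574-98983238, plus strand). Its promoter window (chr12:98920324-98920623) is printed as that of the second gene that differed in mRNA, with its only GC box, read on the opposite strand, in capitals. It holds no X-box of either form and no E-box.
Ttc8: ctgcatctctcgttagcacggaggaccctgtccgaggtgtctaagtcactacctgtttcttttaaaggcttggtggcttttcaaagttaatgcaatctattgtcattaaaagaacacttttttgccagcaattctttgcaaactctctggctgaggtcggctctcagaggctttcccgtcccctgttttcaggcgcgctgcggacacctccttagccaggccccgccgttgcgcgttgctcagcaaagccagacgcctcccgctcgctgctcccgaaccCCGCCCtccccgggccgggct

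*Bbs2*, a propeller-shaped subunit that pairs with Bbs7 in the complex, had 42.9, 49.1 and 57.6 normalized counts of mRNA in *R98S* clones 11, 13 and 35 and 91.3, 107 and 83.1 in *WT* clones 28, 29 and 36. Its footprints were 15.4, 34.4 and 40.3 against 48.7, 56.2 and 44.8. In both assays each *R98S* clone was below each *WT* clone. The log2 differences were -0.90 (SE 0.29) for mRNA and -0.81 (SE 0.38) for footprints, and neither passed the threshold (limma adjusted p = 0.136 and 0.263). *Bbs2* lies on chromosome 8. The median mRNA of 603 genes there deviated by -0.13, -0.04 and -0.13 (log2) in *R98S* clones 11, 13 and 35 and by 0.11 in each *WT* clone. With the median of each chromosome removed, the *Bbs2* mRNA difference was -0.69 (limma adjusted p = 0.250).

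*Arl6*, the GTPase that recruits the BBSome to membranes in its GTP-bound form, had 160, 179 and 179 normalized counts of mRNA in the *R98S* clones and 236, 230 and 216 in the *WT* clones. Its footprints were 40.4, 31.8 and 38.6 against 54.5, 62.5 and 50.1. These groups did not overlap either, with small spreads within a genotype. The log2 differences of -0.40 (SE 0.21) for mRNA and -0.58 (SE 0.28) for footprints did not pass the test (limma adjusted p = 0.378 and 0.277).

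The genotypes overlapped in mRNA and in footprints for the remaining 4 subunits. *Bbs9*, a core subunit, had the most counts of the 9, with 520 to 687 normalized counts of mRNA in *R98S* and 368 to 726 in *WT*, and a log2 difference of 0.18 (SE 0.26). *Bbs1*, the subunit that binds Arl6, ranged from 126 to 179 against 96.7 to 150 (log2 difference 0.34, SE 0.28). *Bbs4*, a tetratricopeptide repeat subunit that binds the centriolar satellite protein Pcm1, ranged from 116 to 129 against 124 to 149 (-0.13, SE 0.24). *Bbs5*, a subunit with lipid-binding domains, ranged from 82.5 to 138 against 67.4 to 124 (0.21, SE 0.33). The limma adjusted p of these 4 was between 0.574 and 0.839 for mRNA. Leaving out 1 clone turned the sign of *Bbs5* (to -0.01 without *WT* clone 36) and of *Bbs9* (to -0.08 without *WT* clone 28), so that these differences have no settled direction.

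The last subunit, *Bbip1*, was not among the 10 genes but belongs to the complex. Its mRNA was 680, 633 and 1105 normalized counts in the *R98S* clones (11, 13 and 35) and 1106, 1054 and 872 in the *WT* clones (28, 29 and 36), and the genotypes overlapped (log2 difference -0.36, SE 0.24, limma adjusted p = 0.470). With it, all 8 subunit genes could be set side by side per kb of exon. In the *WT* clones the highest was *Bbip1*, at 230 ± 27.9 normalized counts per kb. *Bbs9* followed at 88.3 ± 28.7, *Bbs5* at 38.6 ± 11.5, *Bbs2* at 28.3 ± 3.71, *Bbs4* at 22.0 ± 2.38, *Ttc8* at 17.6 ± 4.01 and *Bbs1* at 15.7 ± 3.54, and *Bbs7* was last at 0.263 ± 0.250 (SD, n = 3). *Bbs5* and *Bbs2*, and *Ttc8* and *Bbs1*, differed by less than the larger of their SDs, while the step to *Bbs7* was far beyond any SD. With the length of the longest coding transcript, *Bbs4* (52.7) stood above *Bbs2* (30.6), so that the order of these genes depends on the gene model.

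In the *R98S* clones *Bbs7* was first, at 1287 ± 280 normalized counts per kb, ahead of *Bbip1* at 183 ± 59.0 and *Bbs9* at 97.0 ± 13.4. *Ttc8* was last, at 3.98 ± 0.392. *Bbs7* exceeded the next subunit gene, *Bbip1*, by 9.50-fold in clone 11, 6.71-fold in clone 13 and 5.69-fold in clone 35. It made up 81.4%, 72.9% and 75.8% of the summed mRNA per kb of the 8 subunit genes in these clones, against 0.114%, 0% and 0.0741% in *WT* clones 28, 29 and 36. Without *Bbs7* the sums were 335, 359 and 455 in the *R98S* clones and 436, 492 and 392 in the *WT* clones, which overlap. The mRNA of the complex was thus dominated by 1 subunit in *R98S*, with a like sum of the other 7.

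**Figure D2:**
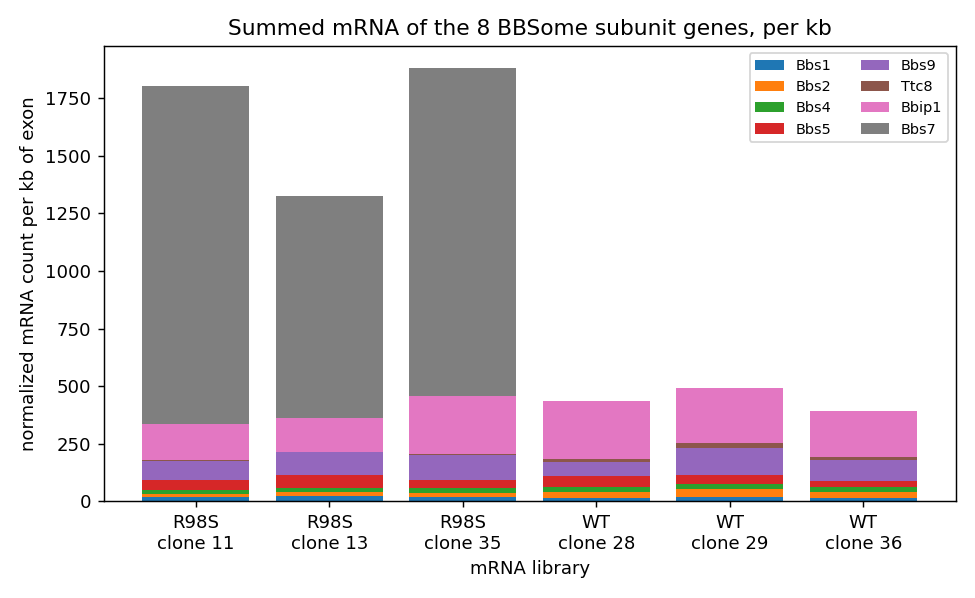
Stacked normalized mRNA counts per kb of exon for the 8 BBSome subunit genes, with 1 bar per mRNA library. Bbs7 (grey) takes 72.9% to 81.4% of the bar in the 3 R98S clones and at most 0.114% in the 3 WT clones, while the rest of each bar stays between 335 and 492.

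Neither of the chaperonin-like genes *Bbs12* and *Bbs10* passed the test in mRNA or in footprints. *Bbs12* had 386, 230 and 175 normalized counts of mRNA in *R98S* clones 11, 13 and 35 and 545, 356 and 315 in *WT* clones 28, 29 and 36, which overlap (log2 difference -0.66, SE 0.33, limma adjusted p = 0.334). Its footprints were 54.8, 51.1 and 30.2 against 98.4, 83.3 and 73.8, without overlap (-0.93, SE 0.30, adjusted p = 0.117). Like *Bbs7*, *Bbs12* lies on chromosome 3, 699 kb away. The median mRNA of 490 genes on chromosome 3 deviated by -0.30 and -0.19 (log2) in *R98S* clones 13 and 35 and by 0.09 to 0.16 in the other 4 clones. With the median of each chromosome removed, the *Bbs12* differences were -0.39 in mRNA and -0.64 in footprints, still negative and not past the threshold.

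*Bbs10* had 115, 124 and 55.9 normalized counts of mRNA in the *R98S* clones and 83.2, 41.2 and 35.3 in the *WT* clones. Its footprints were 30.3, 52.0 and 8.40 against 15.3, 6.25 and 10.5. In both assays clones 11 and 13 were above all *WT* clones and clone 35 was within their range. The log2 differences were 0.89 (SE 0.43) for mRNA and 1.17 (SE 0.62) for footprints (limma adjusted p = 0.322 and 0.321). Without *R98S* clone 35 the footprint difference was 1.88 with an adjusted p of 0.0544, so that this clone decided the call.

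*Mkks*, the third chaperonin-like gene of this complex, was measured only as mRNA. Its values of 345, 400.5 and 401 normalized counts in the *R98S* clones overlapped those of 443, 328 and 299 in the *WT* clones (log2 difference 0.12, SE 0.22, limma adjusted p = 0.836). Its footprints were not analysed here, while 2449 of 2548 genes with a mean mRNA of 200 to 600 normalized counts were listed in the footprint table. The 8 CCT subunit genes, whose products fold actin and tubulin and take part in BBSome assembly, showed 0 calls in mRNA and 0 in footprints by limma. Their log2 mRNA differences lay between -0.16 and 0.28.

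**Figure D3:**
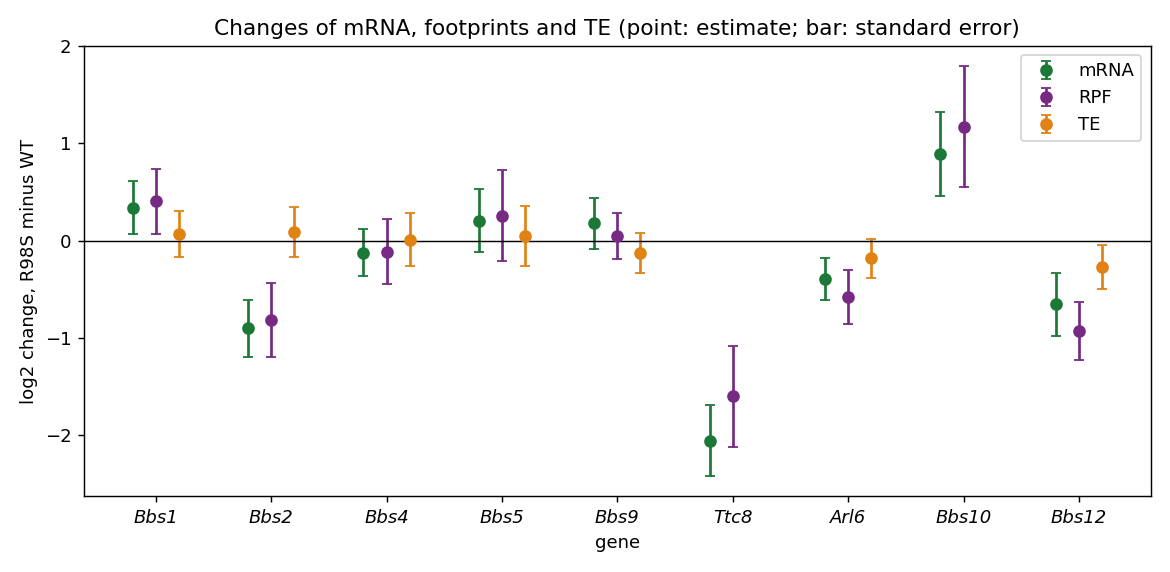
Log2 change (R98S minus WT) of mRNA, footprints (RPF) and translation efficiency (TE) for the 9 genes other than Bbs7; points are limma estimates, bars their standard errors, and TE was not tested for Ttc8 and Bbs10. Ttc8 has the lowest values in mRNA (-2.06) and RPF (-1.60), mRNA and RPF share their sign in each gene, and the TE points lie between -0.27 and 0.09.

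Footprints were then compared for the 9 genes listed. By limma, 0 of 9 passed the threshold, beside 7.76% of the 9580 genes tested, of which 1943 had an unadjusted p under 0.05. Of the 9 genes, 2 did so (*Bbs12* and *Ttc8*). Under the alternatives, at most 1 of the 9 passed the threshold of adjusted p (*Ttc8* without the filter, *Bbs10* without *R98S* clone 35). The median log2 difference was -0.12, against 0.01 for all genes. The *R98S* clones lay entirely below the *WT* clones for 4 genes (*Ttc8*, *Bbs2*, *Bbs12* and *Arl6*) and entirely above for 0, beside 12.8% and 12.5% of all genes (25.3% together). The sign was that of the mRNA difference in 9 of 9 genes, and the clone with the most footprints was the clone with the most mRNA in 7 of 9, while the clone with the fewest was the same in 3 of 9. These counts were not set beside those of all genes. Leaving out a clone turned the footprint sign of *Bbs4*, *Bbs5* and *Bbs9*, so that the shared sign is not settled for them.

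**Figure D4:**
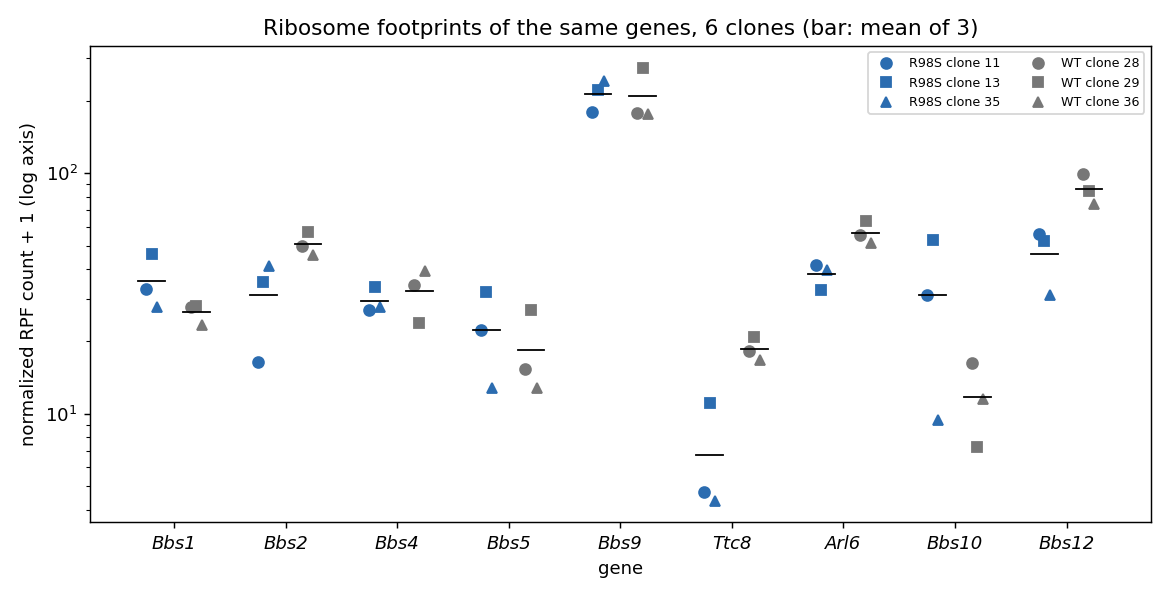
Normalized footprint (RPF) count + 1 on a log axis for the 9 genes in the footprint table, with 1 point per clone (blue, R98S; grey, WT) and a bar at the mean of 3 clones. Ttc8, Bbs2, Bbs12 and Arl6 are lower in each R98S clone than in any WT clone, and R98S clone 35 falls among the WT clones for Bbs10.

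To separate ribosome load from mRNA level, translation efficiency (TE) was taken as the ratio of footprints to mRNA in the same clone. The 2 tables were normalized separately, so that this ratio has no absolute scale. Of the 9 genes, 7 had at least 10 normalized counts in all 12 libraries and were tested, and 0 passed the threshold in limma, beside 0.0221% of 9043 genes. At an unadjusted p under 0.05 there were 710 genes in all, and 0 of the 7. The log2 TE differences ran from -0.27 (SE 0.23) for *Bbs12* to 0.09 (SE 0.26) for *Bbs2*, with adjusted p from 0.732 to 0.993. For *Bbs9* the ratio was 0.343, 0.362 and 0.350 in *R98S* clones 11, 13 and 35 and 0.480, 0.377 and 0.313 in *WT* clones 28, 29 and 36. For *Bbs2* it was 0.360, 0.699 and 0.700 against 0.534, 0.524 and 0.539.

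Between genes, footprints per kb of coding sequence over mRNA per kb of exon placed *Bbs12* near the bottom of 8788 genes, at percentile 3.81 in *WT* and 2.26 in *R98S*. *Bbs5* was at percentiles 14.1 and 14.5. *Bbs1*, *Bbs2*, *Bbs4*, *Bbs9* and *Arl6* lay between 29.5 and 49.3, and *Bbip1*, whose coding sequence has 201 bases, at 82.9 and 92.0. *Bbs12* and *Bbs5* were lowest and *Bbip1* highest of these genes in both genotypes, while the order of those between changed, and the percentiles depend on the gene models used for the lengths.

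Beyond the 10 genes, other genes of the cilium were examined from lists by function. Of 69 tested for mRNA, without the CCT genes, 2 were higher and 3 lower in *R98S* by limma, beside the 3.03% and 3.91% of all genes. For footprints 2 were higher and 5 lower of 64, beside 3.13% and 4.62%, and for TE 0 of 60 passed. The *R98S* clones lay entirely below the *WT* clones for 10 genes in mRNA and 18 in footprints, and entirely above for 6 and 5, beside 11.6%, 12.8%, 11.9% and 12.5% of all genes in the same order. Their median log2 differences were -0.05 in mRNA and -0.13 in footprints. The counts in mRNA were near the background of all genes. In footprints, the 18 of 64 genes entirely below were a larger share than the 12.8% of all genes, and the 5 entirely above a smaller one than the 12.5%. This departure was not tested.

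The genes of IFT, the transport on which the BBSome rides, showed both directions. *Kif17*, a kinesin that accompanies IFT, was higher in *R98S*, with 198, 123 and 114 normalized counts of mRNA against 16.1, 28.0 and 25.9 (log2 change 2.58, SE 0.36, limma adjusted p = 0.00487), and its footprints rose by 2.26 (SE 0.38, adjusted p = 0.0123). *Dync2li1*, a light intermediate chain of the IFT dynein, was lower, with 17.5, 8.19 and 14.6 against 64.4, 80.0 and 69.0 (log2 change -2.38, SE 0.40, adjusted p = 0.0118), and its footprints fell by 3.11 on the log2 scale (SE 0.55, adjusted p = 0.0140). Both changes kept their call in both assays when any 1 clone was left out. The other 6 motor genes, the 14 IFT-B genes and the 5 IFT-A genes tested for mRNA gave 0 calls. In footprints, *Ift122* of IFT-A fell by 1.03 (SE 0.23, adjusted p = 0.0329), a call lost without *R98S* clone 11 (adjusted p = 0.127) or *WT* clone 28 (0.101).

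Of the 5 tested genes for ciliary membrane cargo, *Smo*, the Hedgehog signal transducer that the BBSome helps to move out of the cilium, was higher in *R98S*. Its mRNA was 317, 285 and 167 normalized counts against 69.8, 73.4 and 63.5 (log2 change 1.83, SE 0.30, limma adjusted p = 0.0102), and its footprints rose by 1.27 (SE 0.32, adjusted p = 0.0541). The footprint call was lost without *R98S* clone 11 (adjusted p = 0.223), *R98S* clone 13 (0.219), *WT* clone 28 (0.119) or *WT* clone 36 (0.141).

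Of 9 listed genes for RFX proteins and other factors of cilium formation, 4 had enough mRNA to be tested, all of them RFX genes. *Rfx2*, whose product can bind the X-box, was lower in *R98S*, at 131, 144 and 150 normalized counts against 226, 332 and 281 (log2 change -0.96, SE 0.24, limma adjusted p = 0.0592), and its footprints overlapped (0.18, SE 0.39, adjusted p = 0.835). The mRNA call was lost without *R98S* clone 11 (adjusted p = 0.228), *R98S* clone 13 (0.185), *WT* clone 29 (0.157) or *WT* clone 36 (0.180). *Foxj1*, the regulator of motile cilia, was at 0 in all 6 mRNA libraries, and *Rfx3* had at most 0.819 normalized counts.

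In the footprint table, 3 further genes passed the threshold, all lower in *R98S*. *Pcm1*, the satellite scaffold that binds Bbs4, fell by 0.76 on the log2 scale (SE 0.18, limma adjusted p = 0.0417), *Arl3*, a GTPase that releases lipid-modified cargo in the cilium, by 1.01 (SE 0.27, adjusted p = 0.0655), and *Ahi1*, of the transition zone at the base of the cilium, by 1.17 (SE 0.36, adjusted p = 0.0979). Their mRNA differences had the same sign, at -0.37 (SE 0.23), -0.85 (SE 0.31) and -0.95 (SE 0.33) in the same order. None of these passed the test (limma adjusted p = 0.440, 0.175 and 0.156). The log2 TE differences were -0.39, -0.17 and -0.22, and none passed (limma adjusted p = 0.691, 0.873 and 0.797). The footprint call of *Pcm1* was lost without *R98S* clone 11 (adjusted p = 0.148) or 13 (0.121). That of *Arl3* was lost without *R98S* clone 11 (0.135) or 13 (0.245) or *WT* clone 28 (0.191) or 29 (0.126), and that of *Ahi1* when any clone but *R98S* clone 35 was left out (0.110 to 0.327), without the filter (0.103) or with chromosome medians removed (0.105). Regarding *Lztfl1*, a BBSome regulator, the differences were -0.29 (SE 0.25) in mRNA and -0.32 (SE 0.29) in footprints, and neither passed.

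Finally, the surroundings of *Bbs7* on chromosome 3 were examined. Within 500 kb on each side the mRNA table lists 19 other genes, of which 9 were at 0 in all 6 libraries and 7 had a mean of at least 10. Of the 7, *Acad9*, *D3Ertd254e*, *1810062G17Rik*, *Exosc9*, *Anxa5* and *4932438A13Rik* had log2 mRNA differences between -0.43 and 0.25 and did not pass the test, and in footprints *Anxa5* fell by 0.72 (SE 0.20, limma adjusted p = 0.0731). This footprint call was lost without *R98S* clone 13 (adjusted p = 0.273) or 35 (0.129), without *WT* clone 28 (0.133) or 36 (0.189) and with chromosome medians removed (0.167).

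The remaining neighbour, *Ccna2*, encodes cyclin A, which drives S phase and entry into mitosis. It lies on the same strand as *Bbs7* (chr3:36564865-36572150), and its 5′ end follows 991 bases after the 3′ end of *Bbs7*. Its mRNA was 10442, 6262 and 9960.3 normalized counts in the *R98S* clones (11, 13 and 35) and 3537, 5422 and 4202 in the *WT* clones (28, 29 and 36). All *R98S* clones were above all *WT* clones, with clone 13 again the lowest of the 3, and the log2 change was 1.00 (SE 0.24, limma adjusted p = 0.0516). The call was lost without *R98S* clone 11 (adjusted p = 0.207), *R98S* clone 35 (0.134) or *WT* clone 36 (0.154).

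The footprints of *Ccna2* did not follow its mRNA. They were 1338, 1034 and 1036 normalized counts in the *R98S* clones and 1130.1, 1572 and 1030.5 in the *WT* clones, which overlap (log2 difference -0.12, SE 0.21, limma adjusted p = 0.786). The ratio of footprints to mRNA was 0.128, 0.165 and 0.104 in *R98S* clones 11, 13 and 35 and 0.320, 0.290 and 0.245 in *WT* clones 28, 29 and 36, without overlap. The log2 TE difference was -1.12 (SE 0.23), with a limma adjusted p of 0.517 over 9043 genes. Counting covered exons for mRNA and the coding sequence alone for footprints, and reads were given per gene. The part of the counting, and of reads from transcripts that begin at *Bbs7*, in the *Ccna2* values was not tested.

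**Figure D5:**
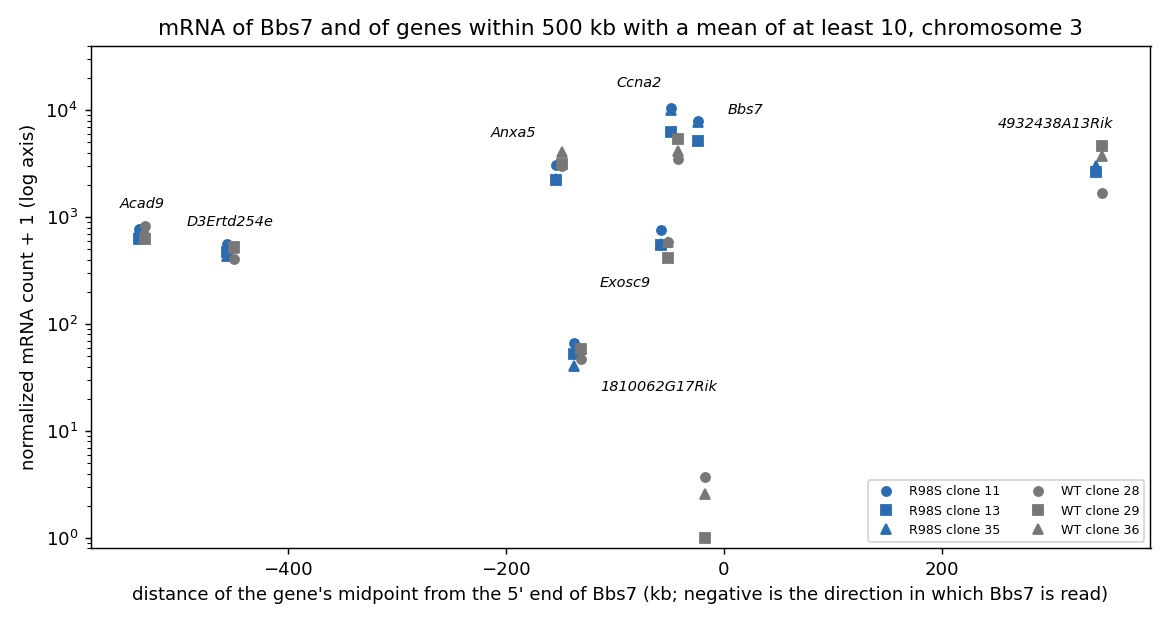
Normalized mRNA count + 1 on a log axis for Bbs7 and the 7 genes within 500 kb that had a mean of at least 10, placed by the distance of each gene's midpoint from the 5′ end of Bbs7 (blue, R98S clones; grey, WT clones). Bbs7 differs by more than 3 orders of magnitude, Ccna2 is higher in each R98S clone than in any WT clone, and the genotypes overlap for the other 6.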

How the data were processed

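Ribosome footprints (RPF) and mRNA were measured in 3 *R98S* and 3 *WT* Ba/F3 clones. The deposited tables hold a signal, gene counts that the authors divided by DESeq2 size factors, separately for each assay. Before that, per the labels and the methods, the authors removed ribosomal and transfer RNA reads from the footprints with Bowtie2 and aligned to mm10 with TopHat2 2.0.11. Exon reads were counted for mRNA and coding-sequence reads, without the ends of the sequence, for RPF. Footprinting runs of a clone had been merged. Whether counting used strand is not given in the sources used here, so overlapping genes such as *Ccna2* and *Exosc9* cannot be told apart where they overlap.

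In each library 100% of values were whole multiples of 1 read (tolerance 0.001), which gave the reads and depths. The test for changes was limma 3.58.1, run in R 4.3.3 with a trended variance after adding a pseudocount of 1 and taking log2. It covered genes with a mean of at least 10, and fold changes on this scale understate those of low genes. P-values were adjusted by Benjamini-Hochberg over all tested genes, with a threshold of 0.1 as in the study. TE was the log2 ratio of RPF to mRNA within a clone, for genes at 10 or more in all 12 libraries. The pairing of libraries comes from clone numbers in the labels, and their deviations from the genotype means correlated at 0.218 to 0.681 over 9043 genes. DESeq2 1.42.0 and edgeR 4.0.16 on the recovered reads, a pseudocount of 8, no filter, removed chromosome medians, an unpaired TE fit and the omission of each clone were tried. The main limma fits and those of DESeq2 and edgeR were tested on simulated data, and the other settings were not. The simulation drew mRNA and RPF counts independently, with a common dispersion in each assay. It therefore does not cover the pairing within a clone, and its outcome is not reported here.

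Lengths and positions came from the GENCODE M21 annotation of the same build, which held 95.4% of the genes tested for mRNA, and promoters from RefSeq. Named genes were the 10 chosen, listed cilium genes past the threshold, *Bbip1*, *Mkks* and *Lztfl1*, the 5 genes most like *Bbs7* and its neighbours, and some of these are not reported here. *Rfx3*, *Foxj1* and *Rpl10* were named after their values were seen. The genes and lists were chosen with earlier results of these data known.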

Additional observations from a re-analysis of the deposited data

How the results depend on the processing

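Over the 9 genes other than *Bbs7*, 282 alternatives were computed for 25 mRNA, RPF or TE results, of which 262 kept direction and side of the threshold, 2 passed it newly and 18 changed sign. *Ttc8* was the only one of the 9 called for mRNA under each setting. For RPF, 0 of the 9 were called, 1 without the filter (*Ttc8*) and 0 to 1 when clones were left out. Over all genes, 787 were called for mRNA and 1283 with DESeq2, and leaving out a clone gave 315 to 1113. For RPF 743 were called, and 229 to 1148 without a clone. For TE 2 were called, 4 without the filter, 6 with DESeq2 and 0 to 3 without a clone. The fit that ignored the pairing of the libraries (no replicate block) called 3 genes for TE and changed no call among the 9. Leaving out a clone changed the sign, with ranges of -0.012 to 0.42 (*Bbs5*), -0.084 to 0.40 (*Bbs9*) and -0.00071 to 0.28 (*Mkks*) for mRNA. For RPF the ranges were -0.32 to 0.035 (*Bbs4*), -0.051 to 0.61 (*Bbs5*), -0.058 to 0.26 (*Bbs9*), -0.17 to 0.36 (*Bbip1*) and -0.24 to 0.063 (*Ccna2*). For TE they were -0.055 to 0.25 (*Bbs1*), -0.065 to 0.39 (*Bbs2*), -0.28 to 0.20 (*Bbs4*), -0.26 to 0.36 (*Bbs5*) and -0.28 to 0.032 (*Bbs9*). With chromosome medians removed the RPF difference of *Ccna2* was 0.17. The cause of these changes was not tested. Depth limits the lowest genes most, since *Ttc8* footprints rest on 2 to 19 reads a library.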
